A study of Mus musculus with 24 samples.

Results

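The SR proteins, the hnRNPs and the protein parts of the core spliceosome were followed as 57 mouse genes. They were taken by a rule on the symbol, set with earlier results of these data known. It took every row whose name starts with Srsf and a digit, Hnrnp, Sf3a or Sf3b and a digit, U2af, or Prpf and a digit. All 57 were listed among 18440 genes in the inner ear table and among 25190 genes in the organoid table. Of these, 56 passed the filter on low counts in each table, out of 15525 inner ear genes and 15888 organoid genes tested. The 56 comprised 11 SR proteins, 20 hnRNPs, 9 subunits of SF3a and SF3b, 3 U2AF genes and 13 PRPF genes. The gene that did not pass was Hnrnpa1l2-ps2, a pseudogene by its symbol, with 0 to 2 counts per inner ear library and 1 to 8 counts per organoid library.

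RNA was sequenced from 24 mouse libraries. Of these, 12 came from the soft tissue of the inner ear of untreated male wild-type C57BL6/J mice aged 3, 11 and 20 months, with the surrounding bone removed and 4 libraries per age; their titles say cochlea. The other 12 came from organoids grown out of the cochlear epithelium of newborn mice, expanded in Matrigel and then differentiated with the GSK3 inhibitor CHIR99021 and the gamma-secretase inhibitor LY411575, with 3 libraries per group. The organoid groups were RBM25 knockdown with TNF-α, RBM25 knockdown alone, TNF-α alone and control. All 4 carry the genotype label wild type, and the knockdown was delivered by lentivirus, although the sample titles call it a knockout. The labels used here name neither a control vector nor how much TNF-α was given or for how long, and no label says that organoid replicates were separate cultures, so their p-values measure the spread between these libraries, which may be technical.

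Introns are removed from pre-mRNA by the spliceosome, which assembles stepwise on each intron. The U2AF heterodimer reads the polypyrimidine tract and the AG at the 3′ splice site, SF3a and SF3b anchor the U2 snRNP at the branch point, and many PRPF proteins belong to the U1-associated, U4/U6.U5 tri-snRNP or later catalytic stages. SR proteins mostly promote exon inclusion from exonic enhancers, and hnRNPs often oppose them, so that the balance of the families shapes alternative splicing. RBM25 is itself an RNA-binding protein associated with the U1 snRNP. Hair cells, supporting cells and spiral ganglion neurons of the cochlea rely on splicing programmes of their own, and several PRPF genes are known in humans for mutations that cause retinal degeneration. Levels of a total mRNA say nothing of which isoforms it holds, and isoforms were not measured in these tables.

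Promoters of 4 members named for TNF-α are shown because these genes moved in opposite directions. Hnrnpa1 and Hnrnpab rose, and Prpf40b and Prpf19 fell. The windows run from 250 bases before to 50 after a start listed by RefSeq on build GRCm38.p6. They read 5′ to 3′ on the strand of the gene. RefSeq lists 2 promoters each for Prpf40b and Prpf19, and the first listed of each gene was used, here and in the counts. The Hnrnpa1 window lies inside the gene locus, which begins at 103239943, and the Prpf40b window spans the locus start at 99295076. The Hnrnpa1 window is chr15:103240147-103240446 on the plus strand, the Hnrnpab window chr11:51606832-51607131 on the minus strand, the Prpf40b window chr15:99294991-99295290 on the plus strand and the Prpf19 window chr19:10894981-10895280 on the plus strand. Capitals mark matches, on either strand, to CCAAT, to the GC box GGGCGG, to the ETS-type CCGGAAG or to the E box CACGTG.
Hnrnpa1: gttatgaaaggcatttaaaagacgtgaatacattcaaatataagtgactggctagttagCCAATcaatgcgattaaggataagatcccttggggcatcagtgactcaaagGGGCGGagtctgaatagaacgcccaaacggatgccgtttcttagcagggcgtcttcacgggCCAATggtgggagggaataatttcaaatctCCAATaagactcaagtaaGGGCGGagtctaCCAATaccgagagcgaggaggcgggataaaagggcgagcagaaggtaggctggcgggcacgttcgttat
Hnrnpab: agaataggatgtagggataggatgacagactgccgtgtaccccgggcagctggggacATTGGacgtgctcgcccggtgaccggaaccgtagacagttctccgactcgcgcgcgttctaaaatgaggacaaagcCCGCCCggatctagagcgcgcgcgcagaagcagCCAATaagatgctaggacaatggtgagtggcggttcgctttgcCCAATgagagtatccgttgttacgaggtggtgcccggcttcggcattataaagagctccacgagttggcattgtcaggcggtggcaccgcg
Prpf40b: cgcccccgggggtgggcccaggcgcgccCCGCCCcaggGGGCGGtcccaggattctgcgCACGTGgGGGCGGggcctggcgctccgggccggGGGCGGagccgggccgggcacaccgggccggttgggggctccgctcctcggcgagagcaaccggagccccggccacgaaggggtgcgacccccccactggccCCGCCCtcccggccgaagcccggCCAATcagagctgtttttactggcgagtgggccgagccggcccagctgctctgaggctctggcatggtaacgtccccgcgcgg
Prpf19: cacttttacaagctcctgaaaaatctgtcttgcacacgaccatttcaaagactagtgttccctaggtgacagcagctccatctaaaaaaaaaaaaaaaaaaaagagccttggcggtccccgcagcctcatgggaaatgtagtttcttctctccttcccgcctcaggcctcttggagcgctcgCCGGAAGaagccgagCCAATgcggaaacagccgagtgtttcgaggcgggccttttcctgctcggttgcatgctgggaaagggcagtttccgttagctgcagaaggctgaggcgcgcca
Of the 57 members, 50 had a promoter in the table, with a median GC content of 60.3%, against 52.7% over all 27025 promoters. CCAAT was present in 26 of the 50 member promoters (52%), against 37.9% of all promoters. GGGCGG was present in 34 (68%), against 35.9%, and CCGGAAG in 15 (30%), against 9.12%. CACGTG was present in 7 (14%), against 7.24%. An NF-kB type motif was found in 1 member promoter (2%), against 1.62% of all promoters, and none of the 4 printed windows holds it. These matches are a description of letters in a window, with no test, and the member promoters are richer in GC than the rest.

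Depth was similar across libraries, at 30599012 to 38451292 counts per inner ear library and 33802411 to 37048422 per organoid library. The targeted gene, Rbm25, had 102.9, 122.1 and 107.6 CPM (counts scaled by library size with TMM factors) with knockdown and TNF-α, 96.93, 94.16 and 92.72 CPM with knockdown, 150.0, 163.3 and 173.0 CPM with TNF-α, and 142.2, 148.0 and 144.1 CPM in controls. The knockdown groups did not overlap their counterparts, with a log2 fold change of -0.61 (SE 0.0605, edgeR quasi-likelihood adjusted p = 1.01e-07) against control and -0.55 (adjusted p = 4.61e-07) within TNF-α. By the same test Rbm25 was called higher with TNF-α, by 0.16 against control (adjusted p = 0.0315). Within the knockdown it was higher by 0.23 (adjusted p = 0.00471). Tnf mRNA itself had 0 counts in the knockdown and control organoids. Hair cell marker genes summed to 682.8 to 1297 CPM over all organoid libraries and to 405.4 to 582.4 CPM over the inner ear libraries. Macrophage markers summed to 1.24 to 12 CPM in the organoids, with Adgre1, Cx3cr1, Cd163, Tyrobp, C1qa and C1qc absent or at 0, and to 223.6 to 902.6 CPM in the inner ear. In bulk RNA, fewer cells of a type and less RNA per cell cannot be told apart.

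Some libraries stood apart from their group for these genes. The third 3-month library was the lowest of its group for 33 of the 56 members (58.9%), against 27.7% of all genes tested, and the third 20-month library for 25 (44.6%), against 31.1%. Among organoids, the second library with knockdown and TNF-α was the highest of its group for 30 members (53.6%), against 38.4% of all genes. The third TNF-α library was the highest for 27 (48.2%), against 32.1%, while the first was the lowest for 29 (51.8%), against 34.3%. The third control library was the lowest for 29 (51.8%), against 31.8%. In the inner ear, the first 11-month library was the lowest for 24 members (42.9%), against 28.3%, and the fourth 20-month library was the highest for 19 (33.9%), against 20.9%.

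**Figure D1:**
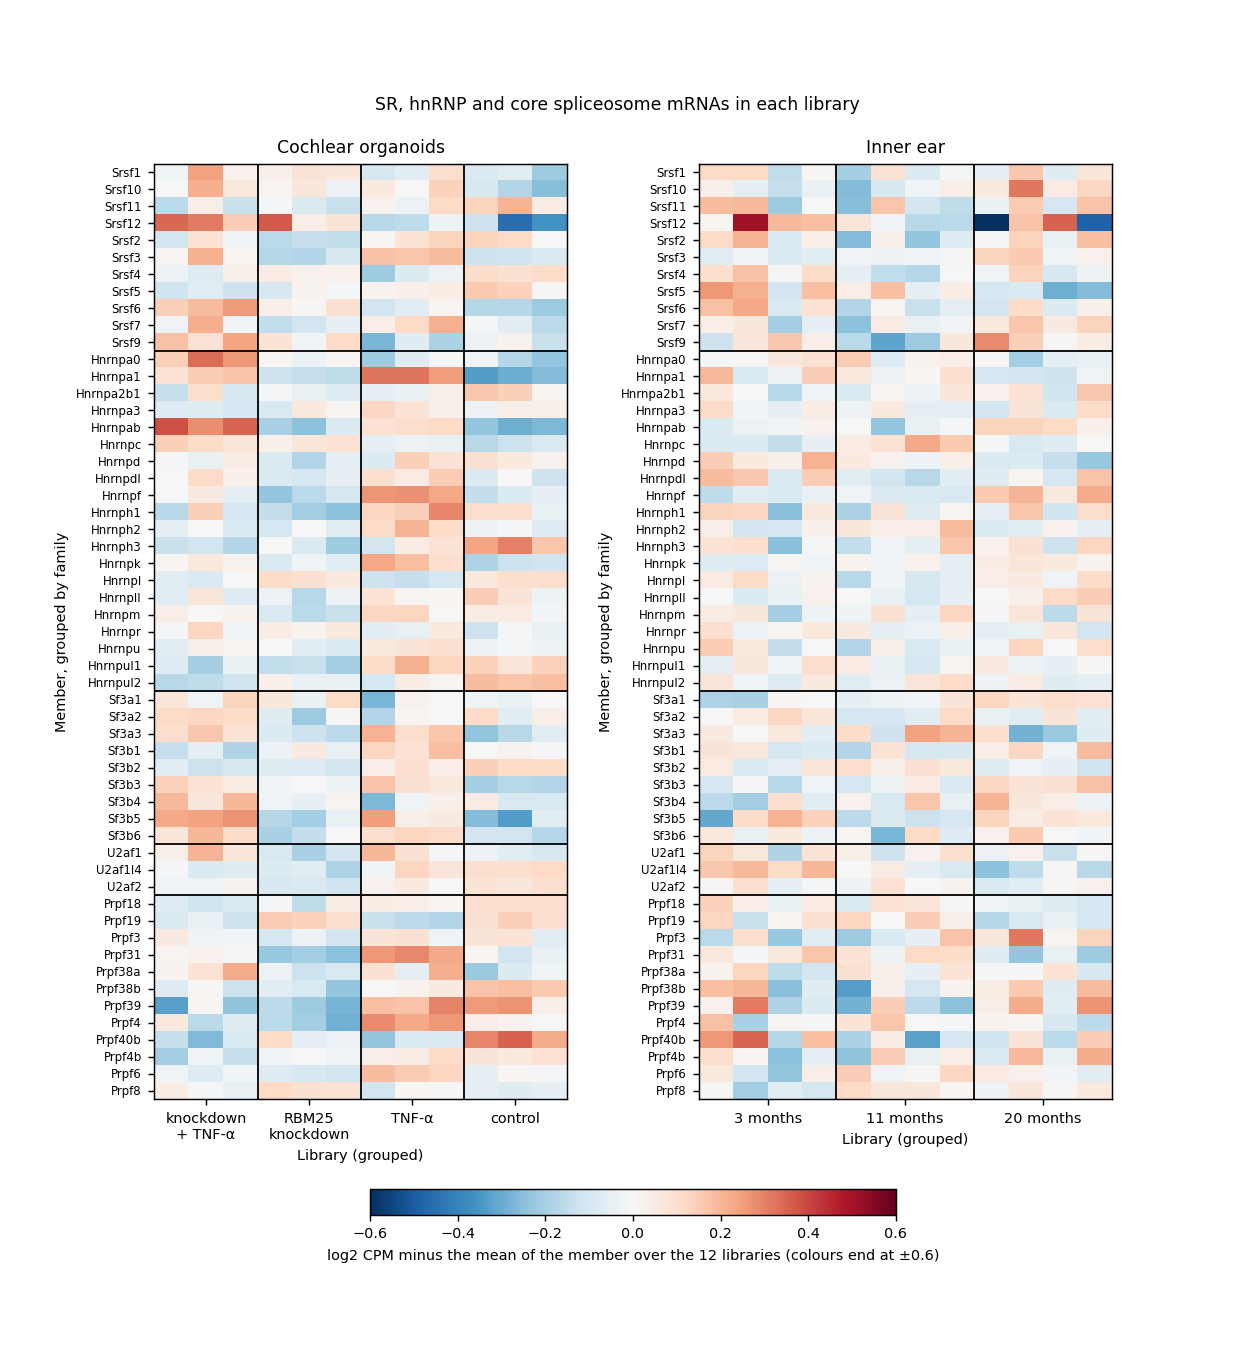
Log2 CPM of each of 55 tested members minus its mean over the 12 libraries of its experiment, with members in rows by family and libraries in columns by group (left, organoids with knockdown and TNF-α, knockdown, TNF-α and control; right, inner ear at 3, 11 and 20 months). Hnrnpa1 and Hnrnpab are high in the groups with TNF-α, and Srsf12 varies most among the inner ear libraries.

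These genes were abundant and spanned a wide range of levels, described here in FPKM (fragments scaled by library size and by gene length) with no test. Among SR proteins, Srsf5 was the highest in every group, at 285.4 ± 6.49 FPKM with knockdown and TNF-α, 299.5 ± 8.31 with knockdown, 305.0 ± 3.31 with TNF-α and 313.3 ± 19.2 in control organoids (SD, n = 3). In the inner ear Srsf5 stood at 227.2 ± 25.2 FPKM at 3 months, 214.6 ± 15.6 at 11 months and 186.3 ± 14.3 at 20 months (SD, n = 4). Srsf12, an SR protein described mainly as a splicing repressor, was the lowest, at 2.64 ± 0.323 FPKM in control organoids and 0.646 ± 0.0982 FPKM at 3 months. Hnrnpa2b1, which binds and sorts RNA in nucleus and cytoplasm, reached 213.9 ± 13.4 FPKM in control organoids and 140.4 ± 9.1 FPKM at 3 months and led the hnRNPs in both. With TNF-α, Hnrnpa1 was above it, at 293.6 ± 7.77 against 200.5 ± 7.42 FPKM. Hnrnpf was the lowest hnRNP at 10.85 ± 0.31 FPKM in control organoids and 7.47 ± 0.312 FPKM at 3 months.

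In control organoids and at 3 months, the highest core factor lay below the highest SR protein and the highest hnRNP. Sf3b2, a subunit of SF3b, was the highest of its family, at 102.4 ± 1.68 FPKM in control organoids and 102.6 ± 5.7 FPKM at 3 months. The lowest of that family were Sf3a2 in control organoids (16.06 ± 1.02 FPKM) and Sf3a1 at 3 months (15.44 ± 1.28 FPKM), both subunits of SF3a. Prpf8, the scaffold at the catalytic centre of the spliceosome, was the highest PRPF gene at 49.59 ± 0.321 FPKM in control organoids and 46.61 ± 2.55 FPKM at 3 months. Prpf4, a U4/U6 protein, was the lowest at 4.69 ± 0.102 FPKM in control organoids and 5.24 ± 0.511 FPKM at 3 months. In control organoids U2af1 (36.44 ± 0.96), U2af2 (33.32 ± 0.138) and U2af1l4 (31.43 ± 0.11 FPKM) followed each other without overlap of their SDs, and at 3 months U2af1l4 (36.17 ± 1.27) and U2af1 (35.86 ± 3.37 FPKM) were within their spread of each other. Together the members took 1.16 ± 0.0382% of counts with knockdown and TNF-α, 1.11 ± 0.0262% with knockdown, 1.18 ± 0.0221% with TNF-α and 1.10 ± 0.0269% in controls. Their share in the inner ear was 0.835 ± 0.0407% at 3 months, 0.825 ± 0.021% at 11 months and 0.859 ± 0.0358% at 20 months. Inner ear and organoid tables were made separately, so levels across them are only set side by side. The gene length behind FPKM also differed between them for some members. Prpf4, for example, had 28.09 CPM in control organoids and 18.81 CPM at 3 months, the reverse of its order in FPKM.

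**Figure D2:**
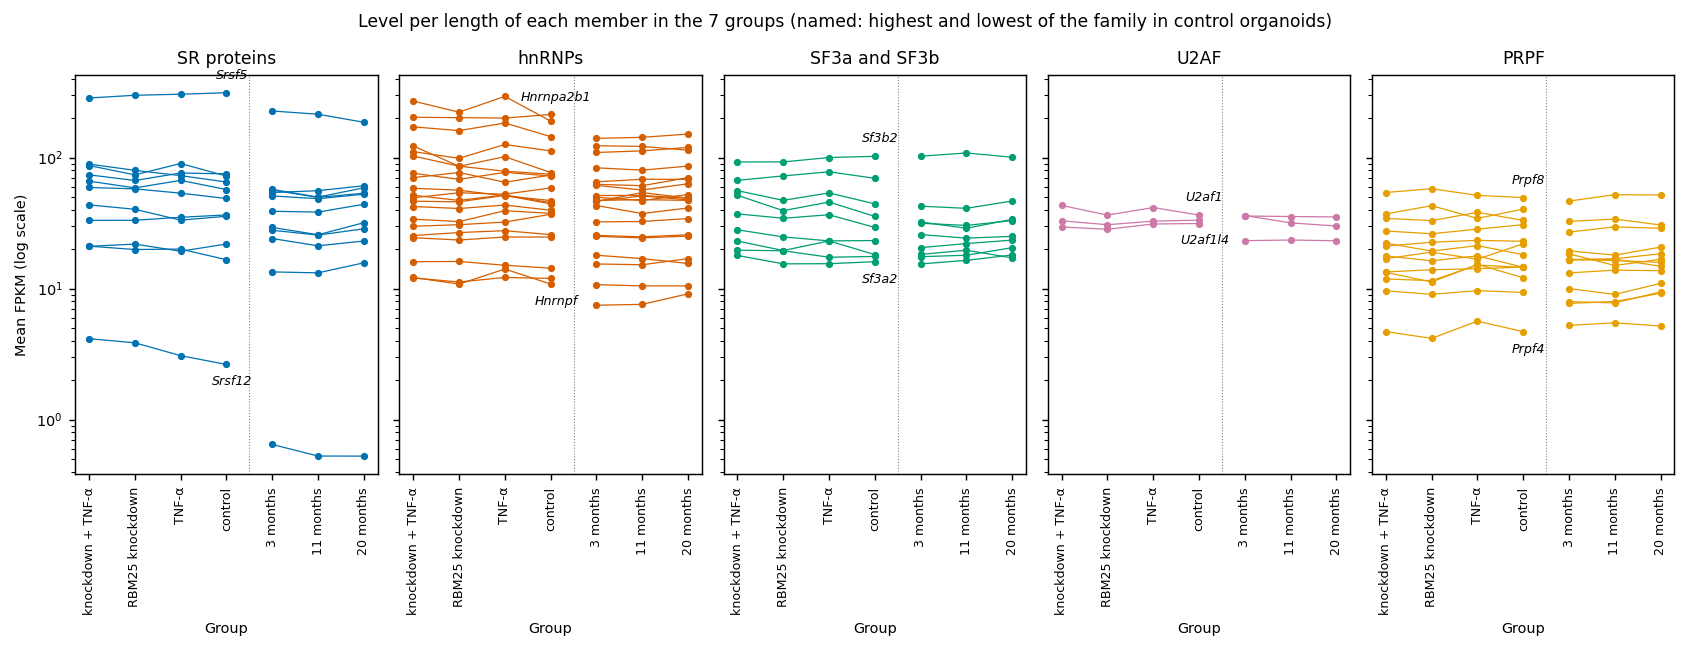
Mean FPKM on a log axis of each member, 1 line per gene, in the 4 organoid groups and the 3 ages, with a panel for each family. Srsf12 lies far below the other SR proteins, at 2.64 FPKM in control organoids.

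Members changed in many comparisons and by small amounts. None of the 56 changed 2-fold in any of the 8 comparisons, and in each the members' median size of change was smaller than that of all genes, for example 0.133 against 0.266 on the log2 scale with TNF-α and 0.134 against 0.289 with the knockdown. Of all genes tested, 1402 were called with a change of at least 2-fold with TNF-α and 2352 with the knockdown. In all, 51 members were called in at least 1 organoid comparison. Only Hnrnpa2b1, Hnrnpr, Hnrnpu and Prpf3 were called in none of the 8. Neither tally was made over all genes, of which 44.8% to 52.6% were called in each organoid pair comparison. The libraries of the compared groups did not overlap for 33 of 56 members with TNF-α (57.5% of all genes), 32 with the knockdown (61.9%), 28 with the knockdown within TNF-α (57.7%) and 30 with TNF-α within the knockdown (53.2%). In the inner ear they did not overlap for 10 members between 20 and 3 months (22% of all genes), 5 between 11 and 3 months (13%) and 14 between 20 and 11 months (20.5%). The direction of every called member stayed the same with DESeq2 size factors and on the FPKM scale.

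**Figure D3:**
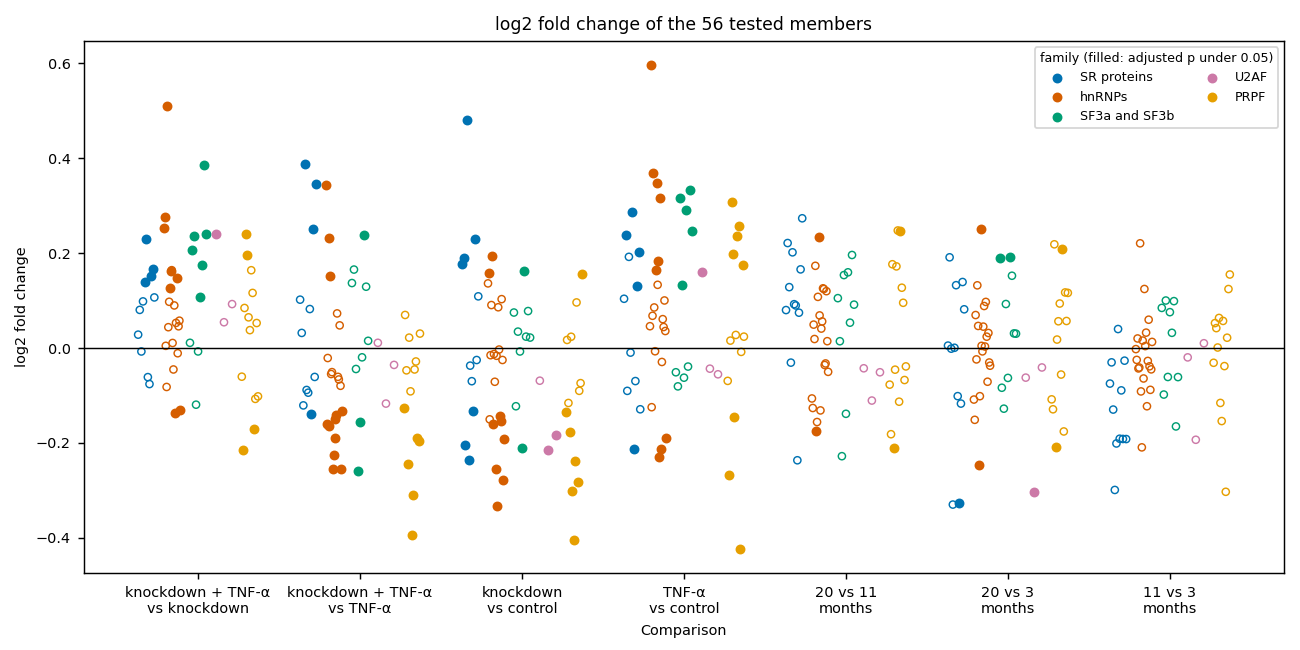
Log2 fold change of the 56 tested members in 7 comparisons, 1 point per gene, coloured by family, with filled points for those called at an adjusted p under 0.05. All points lie within 0.6 of 0, Hnrnpa1 with TNF-α is the highest at 0.60, and no point is filled between 11 and 3 months.

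TNF-α compared with control organoids asks how an inflammatory cytokine acts on cochlear epithelium. Of the 56 members, 21 rose and 7 fell (50%), while 23.3% of all genes tested rose and 24.2% fell (47.5% called in either direction). The members' share called was thus near that of all genes, and the rises outnumbered the falls 21 to 7. The median log2 fold change was 0.0534 for the members and -0.0186 for all genes. By family, 6 hnRNPs rose and 3 fell of 20, 5 SF3 subunits rose and none fell of 9, 4 SR proteins rose and 1 fell of 11, 5 PRPF genes rose and 3 fell of 13, and of the 3 U2AF genes U2af1 rose.

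Hnrnpa1, an RNA-binding protein that commonly favours exon skipping, changed most. It had 590.4, 590.2 and 561.1 CPM with TNF-α, against 374.5, 383.9 and 393.7 CPM in controls, with no overlap, a fold of 1.51 and a log2 fold change of 0.60 (SE 0.046, adjusted p = 4.48e-09). The related A/B-type protein Hnrnpab had 257.7, 261.2 and 264.0 CPM with TNF-α, against 206.7, 197.9 and 201.6 CPM in controls (log2 fold change 0.37, SE 0.047, adjusted p = 3.25e-06). Hnrnpf, which binds runs of G, had 137.6, 138.3 and 134.4 CPM, against 103.6, 108.2 and 110.6 CPM (0.35, adjusted p = 6.85e-06). The poly(C)-binding Hnrnpk had 669.7, 647.0 and 611.7 CPM with TNF-α, against 502.6, 521.8 and 524.7 CPM in controls (0.32, adjusted p = 2.6e-05). In all of these every TNF-α library lay above every control library. Hnrnpl, a CA-repeat binder, fell to 280.2 ± 3.35 CPM with TNF-α, against 324.7 ± 5.27 CPM in controls.

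Among core factors, Sf3b3, a large subunit of SF3b, had 172.3, 163.4 and 160.4 CPM with TNF-α, against 133.7, 136.4 and 135.6 CPM in controls (log2 fold change 0.29, SE 0.043, adjusted p = 1.91e-05). The SF3 subunits Sf3a3, Sf3b5, Sf3b6 and Sf3b1 also rose, by 0.32, 0.33, 0.25 and 0.13 on the log2 scale. Prpf31, a tri-snRNP protein of the U4 particle, had 48.56, 49.56 and 47.54 CPM with TNF-α, against 40.89, 37.48 and 39.35 CPM in controls (0.31, adjusted p = 5.77e-05). Prpf40b, a relative of the yeast U1 protein Prp40, had 59.71, 66.45 and 66.62 CPM with TNF-α, against 86.40, 90.09 and 82.08 CPM in controls (-0.42, SE 0.063, adjusted p = 1.97e-05). Prpf19, the ubiquitin ligase of the catalytic-step complex, had 222.8, 219.5 and 216.6 CPM with TNF-α, against 261.0, 270.2 and 261.9 CPM in controls (-0.27, adjusted p = 2.43e-05). Of the SR proteins, Srsf3, Srsf6, Srsf7 and Srsf10 rose, by 0.13 to 0.29 on the log2 scale, and Srsf4 fell by 0.21.

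Other splicing lists, also chosen with earlier results of these data known, are given for comparison. Of 20 Sm, LSm and U1 snRNP proteins tested, 16 rose and 1 fell with TNF-α (median log2 fold change 0.301), among them Snrpd1 at 26.37 ± 0.683 against 17.66 ± 1.23 CPM. Of 33 tri-snRNP and catalytic-step factors outside the members, 16 rose and 4 fell (median 0.133), and of 8 arginine methyltransferases, which modify RNA-binding proteins, 5 rose and 1 fell, among the higher ones Prmt1 at 99.8 ± 4.59 CPM with TNF-α and 68.76 ± 2.16 CPM in controls. SR-related proteins, with 3 higher and 7 lower of 22, and kinases, phosphatases and import factors of SR proteins, with 2 higher and 4 lower of 11, had medians of -0.0924 and -0.0538. Over all genes tested, 23.3% rose and 24.2% fell with TNF-α. Beside these changes, 8 of 22 cell cycle genes rose and none fell (summed 78.51 to 90.53 CPM with TNF-α, against 59.72 to 64.72 CPM in controls), and 2 of 14 hair cell markers fell and none rose (summed 695.8 to 748.8 CPM with TNF-α, against 1062 to 1090 CPM in controls). The part of these in the members' changes was not tested.

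Compared with control organoids, RBM25 knockdown was followed by 8 higher and 19 lower members (48.2%), while 24.4% of all genes tested rose and 28.2% fell (52.6% called). With DESeq2 size factors the split was 12 higher and 15 lower, and on the FPKM scale 13 higher and 10 lower, so the balance of directions depends on the scaling. The median log2 fold change was -0.0311 for the members and -0.0275 for all genes. The PRPF genes had 1 higher and 6 lower of 13, the hnRNPs 2 higher and 7 lower of 20, U2AF none higher and 2 lower of 3, SF3 1 of each among 9, and the SR proteins 4 higher and 3 lower of 11.

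Among PRPF genes, Prpf38b, which carries a PRP38 domain, had 131.4, 129.5 and 117.3 CPM with the knockdown, against 155.4, 156.3 and 154.0 CPM in controls (log2 fold change -0.30, SE 0.0492, adjusted p = 4.82e-05). Prpf39, whose yeast relative is a U1 protein, had 91.47, 88.17 and 84.11 CPM, against 121.7, 123.1 and 104.2 CPM in controls (-0.40, SE 0.0822, adjusted p = 0.000811). Every knockdown library lay below every control library for both. Prpf4, Prpf18, Prpf31 and Prpf40b also fell, by 0.14 to 0.28 on the log2 scale, whereas Prpf8 averaged 426.2 ± 5.41 CPM with the knockdown and 382.4 ± 3.58 CPM in controls (0.16, adjusted p = 0.00819).

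Of the factors that recognise the 3′ splice site, U2af2 and U2af1l4 fell. U2af2, the subunit that binds the polypyrimidine tract, had 190.6, 192.3 and 187.7 CPM with the knockdown, against 215.8, 214.1 and 218.1 CPM in controls (log2 fold change -0.18, SE 0.0388, adjusted p = 0.000605). U2af1l4, a paralogue of the AG-binding subunit, fell to 24.11 ± 1.05 CPM with the knockdown, against 27.99 ± 0.281 CPM in controls. U2af1 itself was not called (-0.07). Sf3b2 had 298.3, 296.9 and 290.1 CPM, against 346.1, 339.5 and 338.8 CPM (-0.21, adjusted p = 0.000329), and Sf3b3 rose by 0.16 on the log2 scale.

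Among hnRNPs, Hnrnpul1, an RNA-binding relative of hnRNP U, had 163.7, 164.9 and 157.0 CPM with the knockdown, against 199.1, 190.7 and 199.0 CPM in controls (log2 fold change -0.28, SE 0.0482, adjusted p = 8.82e-05). Hnrnph3, of the G-run-binding H group, had 86.03, 80.70 and 74.00 CPM, against 101.1, 105.8 and 96.36 CPM (-0.33, adjusted p = 0.000135). Hnrnpc, which binds U tracts, had 220.1, 226.4 and 229.0 CPM, against 192.1, 196.6 and 202.0 CPM (0.19, adjusted p = 0.000512). The SR protein Srsf6 had 277.1, 272.3 and 288.3 CPM with the knockdown, against 240.2, 240.5 and 233.9 CPM in controls (0.23, adjusted p = 0.000425). Srsf12 had 11.95 ± 1.53 CPM with the knockdown and 8.57 ± 1.03 CPM in controls (0.48, adjusted p = 0.00154), and Srsf2 fell by 0.24.

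With the knockdown, Sm, LSm and U1 proteins had 4 higher and none lower of 20, and the other tri-snRNP and catalytic-step factors 1 higher and 11 lower of 33, among the lower ones Sart1 at 69.38 ± 1.13 against 89.09 ± 1.77 CPM. Of 15 exon junction and nonsense-mediated decay genes, 2 rose and 9 fell, and Smg5, an adaptor of that decay, averaged 122.2 ± 5.06 CPM with the knockdown and 171.2 ± 3.99 CPM in controls. SR-related proteins had 2 higher and 9 lower of 22, and minor spliceosome proteins none higher and 5 lower of 12. The hnRNP proteins under other symbols had 3 higher and 8 lower of 22, including Rbmx at 91.47 ± 2.1 against 128.3 ± 0.521 CPM. Over all genes tested, 24.4% rose and 28.2% fell (52.6% called). These lists were not recounted with other scalings. Of 22 cell cycle genes, 18 rose and none fell (86.8 to 94.11 CPM with the knockdown, against 59.72 to 64.72 CPM in controls), 8 of 15 supporting cell markers fell and 2 rose (2738 to 2836, against 3633 to 3717 CPM), and 10 of 14 hair cell markers rose and 3 fell (979 to 1297, against 1062 to 1090 CPM). The part of these in the members' changes was not tested.

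Within TNF-α, the knockdown compared with TNF-α alone gave 7 higher and 18 lower members (44.6%), while 25.4% of all genes tested rose and 26.9% fell (52.3% called). On the FPKM scale limma made its own set of calls, 11 higher and 12 lower. Again the PRPF genes had none higher and 6 lower of 13, and the hnRNPs 3 higher and 9 lower of 20. The comparison shares no library with that of the knockdown against control. In both, Hnrnph1, Hnrnph3, Hnrnpul1, Hnrnpul2, Prpf4, Prpf18, Prpf31, Prpf39, Sf3b2 and Srsf5 fell and Hnrnpc, Srsf6 and Srsf12 rose. A single member, Hnrnpa1, rose without TNF-α and fell with it. Shared calls were not counted over all genes, of which 52.6% were called with the knockdown and 52.3% with the knockdown within TNF-α.

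Hnrnpa0, an A/B-type protein that binds AU-rich elements, had 250.7, 287.3 and 272.0 CPM with knockdown and TNF-α, against 196.3, 216.4 and 226.1 CPM with TNF-α (log2 fold change 0.34, SE 0.062, adjusted p = 0.000166). Hnrnpab rose as well, to 306.5 ± 11.3 CPM, against 261.0 ± 3.14 CPM with TNF-α alone (0.23, adjusted p = 0.00041). Hnrnpf had 114.5, 118.8 and 110.2 CPM with both treatments, against 137.6, 138.3 and 134.4 CPM with TNF-α (-0.26, adjusted p = 0.000167). Hnrnpul1 averaged 168.5 ± 9.58 CPM with both and 201.2 ± 7.7 CPM with TNF-α (-0.26, adjusted p = 0.000209).

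Of the SR proteins, Srsf6 had 299.1, 308.5 and 323.3 CPM with knockdown and TNF-α, against 249.9, 258.5 and 274.3 CPM with TNF-α (log2 fold change 0.25, SE 0.0465, adjusted p = 0.000189). Srsf9 had 49.91, 46.94 and 52.05 CPM, against 36.56, 42.04 and 38.67 CPM (0.34, adjusted p = 0.000186). Sf3b1, the SF3b subunit that clamps the branch helix, had 489.0, 516.3 and 474.1 CPM with both treatments, against 589.0, 571.4 and 610.7 CPM with TNF-α (-0.26, SE 0.0495, adjusted p = 0.00024). Prpf31 had 40.98, 41.27 and 40.76 CPM, against 48.56, 49.56 and 47.54 CPM (-0.24, adjusted p = 0.000486). None of these groups overlapped.

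The other lists gave, within TNF-α, 9 higher and none lower of 20 Sm, LSm and U1 proteins, 2 higher and 15 lower of 33 tri-snRNP and catalytic-step factors, among the lower ones Slu7 at 56.84 ± 0.709 against 72.73 ± 0.896 CPM, and 3 higher and 10 lower of 22 SR-related proteins. Tissue-restricted splicing regulators had 9 higher and 4 lower of 19 (median log2 fold change 0.425). Against that median, the epithelial regulator Esrp1 was lower, at 107.2 ± 7.56 CPM with both treatments and 143.5 ± 8.07 CPM with TNF-α. Over all genes tested, 25.4% rose and 26.9% fell. Of 22 cell cycle genes 15 rose and 1 fell here (92.27 to 97.89 CPM with both, against 78.51 to 90.53 CPM with TNF-α), and supporting cell markers summed to 2599 to 2760 CPM with both, against 3609 to 3862 CPM. Their part in the members' changes was not tested.

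TNF-α in knockdown organoids, compared with the knockdown alone, gave 19 higher and 4 lower members (41.1%), while 22.8% of all genes tested rose and 22% fell (44.8% called). With DESeq2 size factors the split was 13 higher and 7 lower. The count was 14 without the first knockdown library, 15 without the second, and 15 without the third library with knockdown and TNF-α. SF3 subunits rose in 6 of 9 cases and none fell. Hnrnpab had 316.5, 294.1 and 308.8 CPM with knockdown and TNF-α, against 211.9, 204.4 and 229.3 CPM with the knockdown (log2 fold change 0.51, SE 0.047, adjusted p = 5.61e-08), a fold of 1.42. Hnrnpa1 had 501.9, 525.3 and 530.9 CPM, against 432.8, 428.5 and 424.6 CPM (0.28, adjusted p = 7.07e-05). The small SF3b subunit Sf3b5 had 36.62, 36.94 and 37.77 CPM, against 27.81, 27.14 and 30.35 CPM (0.38, adjusted p = 0.000353), and Prpf19 had 230.2, 237.3 and 224.1 CPM, against 272.2, 268.8 and 261.6 CPM (-0.21, adjusted p = 0.000263). Sm, LSm and U1 proteins had 17 higher and none lower of 20. No cell cycle gene of 22 was called here by edgeR, and hair cell markers had 8 lower and none higher of 14.

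In these comparisons of TNF-α without and with the knockdown, which share no library, 14 members rose in both, among them Hnrnpa1, Hnrnpab, Hnrnpf, Prpf31, Sf3a3, Sf3b3, Sf3b5, Sf3b6 and Srsf3. Hnrnpl, Hnrnpul2, Prpf19 and Prpf40b fell in both, and no member was called in opposite directions. Calls shared by these 2 comparisons were not counted over all genes. Of all genes, 47.5% were called with TNF-α and 44.8% with TNF-α within the knockdown. Whether the effect of TNF-α differed was tested by the interaction, which subtracts the TNF-α effect without the knockdown from the effect with it. There 3 members were lower and none higher (5.36%), while 7.54% of all genes tested were higher and 4.81% lower (12.3% called). That count was 1 without control replicate 1 or 3 or knockdown replicate 2, 5 without TNF-α replicate 1, 6 without TNF-α replicate 3, 7 without knockdown replicate 1, 9 without replicate 2 with both treatments, and 6 with DESeq2 or with limma on the FPKM scale.

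For Hnrnpa1 the TNF-α effect was 0.28 with the knockdown and 0.60 without it on the log2 scale, a difference of -0.32 (SE 0.0648, adjusted p = 0.0034), and this call remained in each of the 17 alternatives. Hnrnpa1 was at 519.4 ± 15.4 CPM with both treatments, 428.6 ± 4.11 CPM with the knockdown, 580.6 ± 16.8 CPM with TNF-α and 384.0 ± 9.62 CPM in controls (SD, n = 3), with no overlap between any of these groups. For Sf3b1 the difference was -0.25 (SE 0.07, adjusted p = 0.0244). Its libraries lay at 489.0, 516.3 and 474.1 CPM with both treatments, 525.8, 558.9 and 522.2 CPM with the knockdown, 589.0, 571.4 and 610.7 CPM with TNF-α, and 536.9, 545.2 and 533.0 CPM in controls. Sf3b1 was called higher with TNF-α against control and was not called with TNF-α within the knockdown. For Hnrnpk the difference was -0.23 (SE 0.068, adjusted p = 0.0362), with 574.9, 595.7 and 579.0 CPM with both treatments, 537.4, 562.5 and 544.2 CPM with the knockdown, 669.7, 647.0 and 611.7 CPM with TNF-α and 502.6, 521.8 and 524.7 CPM in controls. The calls of Sf3b1 and Hnrnpk ended without control replicate 1 or 3 or knockdown replicate 2 (adjusted p up to 0.0797 for Sf3b1 and 0.103 for Hnrnpk), and that of Hnrnpk also without control replicate 2 and with the replicate block (adjusted p = 0.0532). Sf3b3 missed the threshold (adjusted p = 0.0562).

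**Figure D4:**
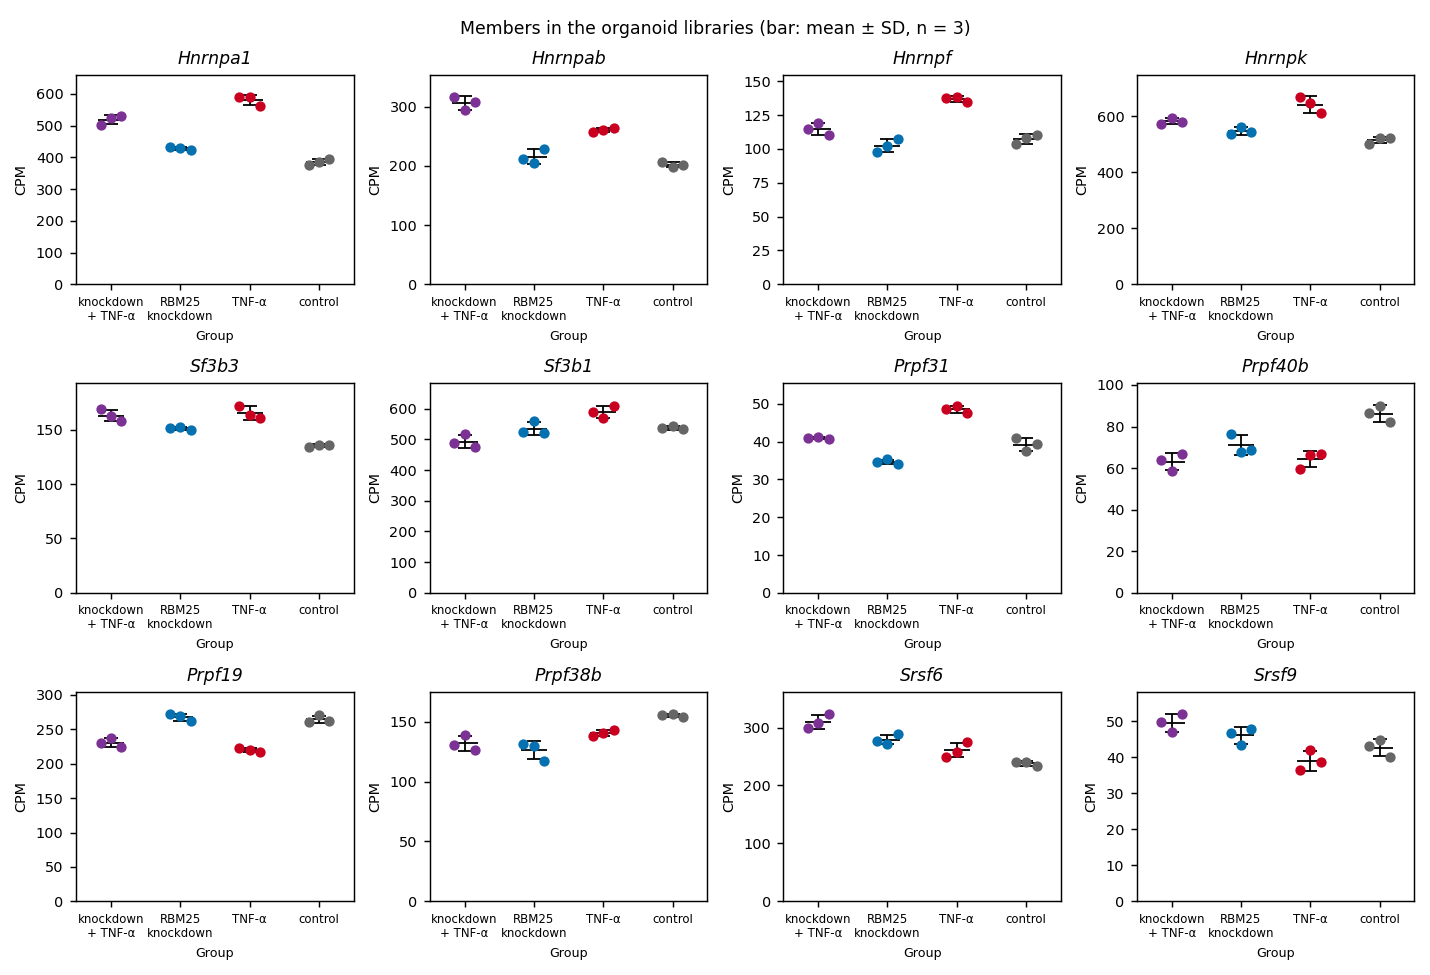
CPM of 12 members in each organoid library (points) with the mean and SD of each group of 3, axes starting at 0, with both treatments at the left and control at the right. Hnrnpa1, Hnrnpf and Hnrnpk are highest with TNF-α alone, Hnrnpab and Srsf6 are highest with both treatments, and Prpf40b is highest in controls at 82.08 to 90.09 CPM.

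In the inner ear, 20 months compared with 3 months gave 4 higher and 4 lower members (14.3%), while 12% of all genes tested rose and 10.7% fell (22.7% called). The median size of their changes was 0.0933, against 0.204 for all genes on the log2 scale. On the FPKM scale the split was 6 higher and 3 lower.

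Hnrnpf had 82.31, 85.14, 76.77 and 86.15 CPM at 20 months, against 66.43, 70.58, 69.33 and 71.51 CPM at 3 months (log2 fold change 0.25, SE 0.0529, adjusted p = 0.00588). Hnrnpd, also known as AUF1 and a binder of AU-rich elements, had 128.4, 128.7, 123.9 and 116.6 CPM at 20 months, against 151.3, 142.1, 139.6 and 157.5 CPM at 3 months (-0.25, SE 0.0551, adjusted p = 0.00756). U2af1l4 had 23.72, 25.32, 28.27 and 25.02 CPM at 20 months, against 31.42, 32.20, 30.42 and 32.27 CPM at 3 months (-0.30, SE 0.069, adjusted p = 0.00839). In these 3 genes the ages did not overlap, and no left-out library ended the call.

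Srsf5, the most abundant SR mRNA per length, had 321.5, 326.4, 283.0 and 288.7 CPM at 20 months, against 415.0, 401.0, 320.4 and 392.0 CPM at 3 months (log2 fold change -0.33, SE 0.0866, adjusted p = 0.0177). The third 3-month library lay within the 20-month range, and the others lay above it. Without that library the change was -0.40 (adjusted p = 0.00392), and without the fourth 20-month library it was -0.30 (adjusted p = 0.0518). Of the other called members, Sf3b3 rose to 90.46 ± 2.74 CPM at 20 months, against 79.21 ± 4.01 CPM at 3 months (0.19, adjusted p = 0.0268). Sf3a1 rose to 87.44 ± 1.45 CPM, against 76.67 ± 6.03 CPM (0.19, adjusted p = 0.0387), and Prpf31 fell to 45.84 ± 3.06 CPM, against 53.00 ± 2.72 CPM (-0.21, adjusted p = 0.034). These 3 calls ended when single libraries were left out. For Sf3b3 these were replicates 1 and 3 at 3 months and 1 and 4 at 20 months (adjusted p up to 0.0807). For Prpf31 they were replicates 1, 3 and 4 at 3 months and 2 and 4 at 20 months (up to 0.0916), and for Sf3a1 replicates 1 and 2 at 3 months and each of the 20-month replicates (up to 0.117). The call of Sf3a1 also ended with DESeq2 size factors, without a filter and with the replicate block (adjusted p 0.05, 0.0645 and 0.0502), that of Sf3b3 with the replicate block (0.0558) and that of Prpf31 with limma on the FPKM scale (0.0671). All 3 ended in a fit of only the libraries compared. The count of called members was 5 without replicate 1 or 3 at 3 months or replicate 1 or 2 at 20 months, and 4 without replicate 4 at 20 months.

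**Figure D5:**
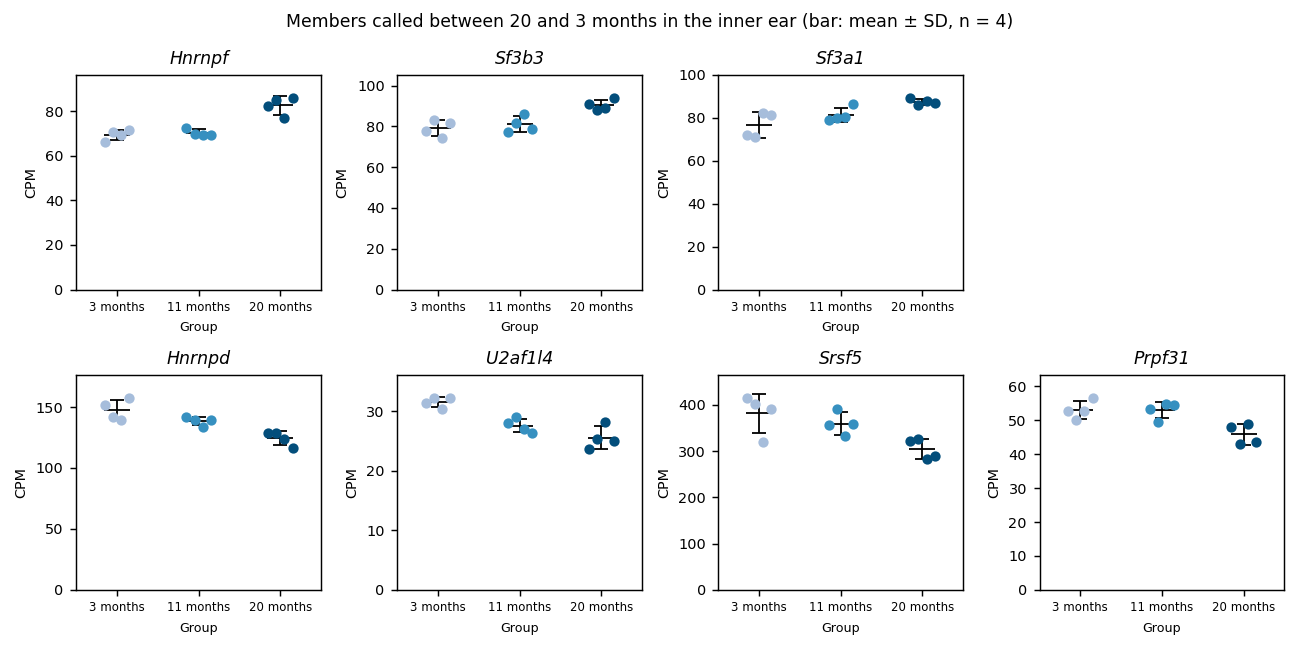
CPM of 7 members called between 20 and 3 months, in each inner ear library (points) with the mean and SD of each age of 4 libraries, axes starting at 0. The upper row holds 3 that rose and the lower row the 4 that fell, and in Srsf5 1 of the 3-month libraries, at 320.4 CPM, lies inside the 20-month range.

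Between 11 and 3 months no member was called by edgeR, while 0.979% of all genes tested rose and 0.58% fell (1.56% called). At an unadjusted edgeR p under 0.05 there were 10 members of 56, against 18.1% of all genes tested. DESeq2 called 1 member and limma on the FPKM scale 0. Nearest to the threshold was Hnrnpc, with 208.5, 214.6, 236.3 and 225.3 CPM at 11 months, against 190.5, 190.7, 182.7 and 195.3 CPM at 3 months (log2 fold change 0.22, SE 0.0542, adjusted p = 0.0594), which did not overlap and was the member that DESeq2 called (adjusted p = 0.00216). Srsf4 averaged 75.65 ± 4.29 CPM at 11 months and 86.36 ± 4.14 CPM at 3 months (adjusted p = 0.141), U2af1l4 27.62 ± 1.16 and 31.58 ± 0.867 CPM (adjusted p = 0.162), and Hnrnpdl 135.1 ± 4.34 and 156.2 ± 13.5 CPM (adjusted p = 0.16).

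Between 20 and 11 months 2 members rose and 2 fell (7.14%), while 7.87% of all genes tested rose and 7.9% fell (15.8% called). On the FPKM scale 6 rose and none fell. Hnrnpf was at 82.59 ± 4.21 CPM at 20 months and 70.22 ± 1.61 CPM at 11 months (log2 fold change 0.23, adjusted p = 0.0145). Prpf31 fell to 45.84 ± 3.06 CPM at 20 months, against 53.04 ± 2.47 CPM at 11 months (-0.21, adjusted p = 0.0436). Hnrnpc fell to 196.0 ± 6.31 CPM at 20 months, against 221.2 ± 12.2 CPM at 11 months (-0.17, adjusted p = 0.0457), so that its 11-month level stood above both other ages. The call of Hnrnpf ended without the third 11-month library (adjusted p = 0.0591). That of Prpf31 ended without 6 of the 8 libraries in turn (up to 0.109) and that of Hnrnpc without 7 (up to 0.108). Both calls also ended with the replicate block (adjusted p 0.051 for Prpf31 and 0.0846 for Hnrnpc), in a fit of only the libraries compared (0.0522 and 0.0567) and with limma on the FPKM scale (0.0667 and 0.0775). The count was 0 without the third 11-month library, 2 without replicate 4 of that age, 1 without replicate 1 or 2 at 20 months and 2 without replicate 4 at 20 months. Beside these values, 12 of 15 neuronal markers fell and none rose (8522 to 12500 CPM at 20 months, against 14460 to 16330 CPM at 11 months), 6 of 16 macrophage markers rose and none fell (532.3 to 902.6, against 462.6 to 541.8 CPM), 5 of 15 supporting cell markers rose and 1 fell, and a list of 17 immediate early and heat shock genes had 6 higher and 1 lower. Their part in the members' changes was not tested. The 3 age comparisons share libraries in pairs, and their values are given side by side only.

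Between 20 and 3 months, tissue-restricted regulators had 1 higher and 6 lower of 25 (median log2 fold change -0.283), with Rbfox1 at 55.15 ± 6.25 against 80.46 ± 12.2 CPM and Elavl4 at 196.4 ± 26.3 against 297.1 ± 43.2 CPM, both of them neuronal. The neuronal SR-related protein Srrm4 fell to 23.38 ± 3.9 CPM at 20 months, against 41.25 ± 7.2 CPM at 3 months, within a list of 1 higher and 3 lower of 22. The polypyrimidine-tract binder Ptbp3 rose to 66.75 ± 3.07 CPM, against 47.42 ± 1.34 CPM. Over all genes tested, 12% rose and 10.7% fell. Beside these values, 10 of 15 neuronal markers fell and none rose (8522 to 12500 CPM at 20 months, against 12880 to 16430 CPM at 3 months; the list shares Elavl4), and 15 of 16 macrophage markers rose and none fell (532.3 to 902.6, against 223.6 to 311.2 CPM). Immediate early and heat shock genes had 11 higher and none lower of 17. Schwann cell and myelin markers had none higher and 6 lower of 12. Brain glia and cerebellum markers summed to 364.1 to 1844 CPM at 20 months, against 314.6 to 745.4 CPM at 3 months. Mucosal epithelium markers summed to 109.4 to 1079 CPM at 20 months, against 122.9 to 491.5 CPM. The part of any of these lists in the members' changes was not tested.

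Many members cannot be fully separated from other loci in these counts. In the GENCODE vM21 annotation, 19 members have an exon that overlaps a gene on the opposite strand, among them Hnrnpab with Phykpl, Hnrnpk with Rmi1, Hnrnpf with 4933440N22Rik, Sf3b3 with Cog4, Prpf31 with Gm15927, Prpf39 with Fkbp3 and U2af1l4 with Psenen, and 5 have one that overlaps a gene on the same strand. The library kit does not mark strand, so reads from such overlaps cannot be told apart. Near-identical copies (at least 95% identity over at least 300 bases of transcript) exist in other genes for 13 members, including 9 for Hnrnpa1, 27 for Hnrnpa3 and 8 for Hnrnpf, and their values are uncertain to that extent. Hnrnpa1 lies at chr15:103239943-103246698 on the plus strand, Hnrnpab at chr11:51600100-51606881 on the minus strand and Sf3b1 at chr1:54985169-55027501 on the minus strand (GRCm38.p6).

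The annotation also shows what these genes share beyond their names. A transcript type marked as a target of nonsense-mediated decay is listed for 30 of the 56 members that GENCODE types as protein-coding (53.6%), against 20.8% of 22028 protein-coding genes. A retained-intron transcript is listed for 41 (73.2%), against 41.4%. Such transcripts are known from many SR and hnRNP genes, which adjust their own mRNA level by splicing in exons that lead to decay. A gene-level count sums over these transcripts, and the shares are a description of the annotation.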

How the data were processed

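Gene-level read counts and FPKM for inner ear and organoid libraries were used as the authors deposited them, 1 table per experiment. Per the submitters' processing notes, Trimmomatic, HISAT2, HTSeq and DESeq2 were used with build mm10, with no versions stated there. The TruSeq v2 kit of the labels does not mark strand. No column of another series was present (0). Members and gene lists were chosen with earlier results of these data known.

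Counts were fitted per table, over all genes, with edgeR 4.0.16 (R 4.3.3): TMM scaling, filterByExpr, a robust quasi-likelihood fit with 1 coefficient per group and Benjamini-Hochberg adjustment, called at an adjusted p under 0.05. Named members were the 8 with the lowest p in 4 main comparisons and the 4 with the lowest p in the others, whether or not called, the highest and lowest of each family by FPKM, and up to 2 with the lowest p of each other splicing list. Further members were chosen after their values were seen. Values of 1 member are not reported here, though counts include it. DESeq2 1.42.0, its size factors, limma 3.58.1 on log2(FPKM + 1), no filter, a replicate block, a fit of only the compared libraries and left-out replicates were alternatives. The deposited FPKM describe levels only. The planned permutation test of summed shares is not given. The fits were tested on simulated data. Counts between replicates differed by more than sampling noise (chi-square per degree of freedom 4.54 to 88.9). Promoters are from RefSeq.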

Additional observations from a re-analysis of the deposited data

Results flagged for a closer look

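By the interaction term, the effect of TNF-α was called different with and without the RBM25 knockdown for 3 members. That is 5.36% of the members, against 12.3% of all genes tested. The log2 difference, effect with the knockdown less the effect without it, was -0.32 for Hnrnpa1, -0.25 for Sf3b1 and -0.23 for Hnrnpk. The call of Hnrnpa1 remained in each alternative. Those of Sf3b1 and Hnrnpk ended in 3 and 4 of the 12 fits that left out a library. That of Hnrnpk also ended with the replicate block.

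In the inner ear, 17 named members were searched in the 3 ages for a library far from the other 3, and 2 of 51 groups held one. At the nominal rate of this search, which was not measured here, chance flags about 1 in 20 groups. Hnrnpdl had 136.1 CPM in the third 3-month library, against 161.1 to 165.1 CPM in the others. Hnrnpf had 72.63 CPM in the first 11-month library, against 69.27 to 69.61 CPM in the others.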

How the results depend on the processing

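The members with the lowest p in each comparison were recomputed one by one. None of their fold changes reversed, and their calls between organoid pairs remained under the alternatives run. Other named calls were not followed one by one. Left-out replicates gave 4 to 8 called members between 20 and 3 months, 0 between 11 and 3 months, 0 to 5 between 20 and 11 months, 23 to 27 with TNF-α, 22 to 26 with the knockdown, 19 to 27 with the knockdown within TNF-α, 14 to 20 with TNF-α within the knockdown and 1 to 9 for the interaction. Fitting only the compared libraries gave 4 between 20 and 3 months, against 8, with the calls of Sf3b3, Prpf31 and Sf3a1 among those lost (adjusted p 0.0567, 0.0684 and 0.093), and 1 between 11 and 3 months, against 0. DESeq2 gave 1 between 11 and 3 months, 8 between 20 and 11 months, against 4, and 6 for the interaction, against 3. The interaction count was 5 without a filter and 6 with limma. The causes were not tested. The members' share in control organoids was 1.13% of the TMM-scaled library, against 1.10%.

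With the replicate number as a block, counts were 6, 0 and 3 between 20 and 3, 11 and 3, and 20 and 11 months, 28 with TNF-α, 26 with the knockdown, 23 within TNF-α, 20 for TNF-α within the knockdown and 2 for the interaction, where the call of Hnrnpk ended. Deviations of log2 CPM from the group mean were correlated between same-numbered libraries of different groups. These correlations were -0.345 to 0.371 in the inner ear and -0.116 to 0.292 in organoids. They were positive for each control and knockdown pair (0.0339 to 0.292). The numbers thus do not show a pairing that holds across the groups. Another length scale for FPKM was not run. Counting limited Hnrnpa1l2-ps2 alone.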
